A study of Mus musculus with 4 samples.

Results

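The AP-1 transcription factors examined here are 10 genes, *Fos*, *Fosb*, *Fosl1*, *Fosl2*, *Jun*, *Junb*, *Jund*, *Atf3*, *Maff* and *Batf3*. All transcripts in the deposited transcript table with 1 of these symbols were taken, which gave 14 transcripts of 8 genes, out of 34200 transcripts of 21945 genes. *Atf3* and *Batf3* had 0 tested transcripts, so only their promoter sequences were examined here. The family was chosen by the deposited comparison of Knockdown with Wild type, in which *Fos* and *Fosb* stood out. The values of that comparison were not used here, and no difference between the groups was tested. What follows are the levels, the isoforms and the spread over the libraries, with the sequences of the genes.

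The cells were NIH/3T3, an immortalised line of mouse fibroblasts, so that each value belongs to 1 cell line. Knockdown cells (2 libraries) received 2 siRNAs against *Setd2*, the methyltransferase that places H3K36me3 along transcribed genes, and Wild type cells (2 libraries) received Scrambled siRNA. Both groups were transfected with Lipofectamine 3000 at an siRNA concentration of 10 nM, and RNA was taken 48 h later, so that none of the libraries shows untransfected cells. Polyadenylated RNA was sequenced, and each deposited level and variance covers all 4 libraries, both groups together. Values of single libraries were not analysed here, so depth and the values in each group are unknown, and the knockdown could not be checked library by library. Genes typical of fibroblasts were present at high levels. The lowest of 7 was *Col3a1* with 1181 normalised estimated counts per kilobase of transcript, and the highest was *Vim* with 68589. Of 7 genes typical of epithelial, blood and endothelial cells, 4 had a tested transcript, at 6.40 to 25.4 normalised estimated counts per kilobase.

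AP-1 is a dimer of proteins with a basic region, which contacts DNA, and a leucine zipper, which holds the dimer together. JUN proteins pair with each other or with FOS proteins, whereas FOS proteins need a JUN partner. ATF3, BATF3 and the small MAF protein MAFF share this build, and BATF3 and MAFF lack an activating domain. In fibroblasts *Fos*, *Fosb*, *Jun* and *Junb* are immediate-early genes. Their short-lived mRNAs rise within minutes of serum or growth factors without new protein synthesis, whereas *Fosl1* and *Fosl2* follow later and last longer.

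The sequences that tell the *Fosb* isoforms apart are shown first, because 5 of the 14 transcripts belong to this gene. *Fosb* lies on the minus strand of chromosome 7 (GRCm38), and the exons and sequences are those of the GENCODE M21 annotation of that build. The full-length transcript Fosb-201 (ENSMUST00000003640.3, 19302696 to 19310051) has 4 exons and encodes 338 codons. Its exon 3 of 108 bases (19306559 to 19306666) carries codons 150 to 185, which hold the basic region that contacts DNA. Exon 3 is missing from Fosb-202, Fosb-203 and Fosb-207. From exon 4, 140 bases (19305007 to 19305146) are spliced out in Fosb-206 and Fosb-207. This event brings a stop codon right behind the junction, and Fosb-206 encodes 237 codons, the length of the truncated protein known as ΔFosB, which lacks the C-terminal activating part. Fosb-203 also lacks the first 117 bases of exon 2. The junctions are given 5′ to 3′ with the last 15 bases of the upstream exon in lower case and the first 15 bases of the downstream exon in capitals.
Exon 3, whole, in Fosb-201 and Fosb-206: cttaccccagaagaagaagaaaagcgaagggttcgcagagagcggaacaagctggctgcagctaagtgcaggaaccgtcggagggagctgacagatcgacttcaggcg
Exon 2 to exon 3, in Fosb-201 and Fosb-206: ccccgagaagagacaCTTACCCCAGAAGAA
Exon 2 to exon 4, in Fosb-202, Fosb-203 and Fosb-207: ccccgagaagagacaGAAACTGATCAGCTT
Within exon 4, in Fosb-206 and Fosb-207: ggcccgctggccgagTGAAGTTCAAGTCCT
Exon 1 to the shortened exon 2, in Fosb-203: gccgccgcctcccagTCCCAGGGGCAGCCA

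Levels are given as normalised estimated counts, that is reads estimated for a transcript and scaled between libraries, computed back from the deposited mean of the natural logs. They are therefore geometric means, which fall below the arithmetic mean, the more so the wider the libraries differ. Per kilobase of transcript, the member genes covered an 11.5-fold range, from *Jun* at 2925 down to *Fosb* at 255, summed over the tested transcripts of each gene. All of them stood above the median of all genes with a length, 127 per kilobase. *Jun*, the central partner of the dimer, stood at the 92.6th percentile of all genes and *Fosb* at the 57.9th. *Fosl1* with 2633 and *Fosl2* with 2318 per kilobase followed *Jun*, then *Junb* (1188), *Maff* (889), *Jund* (747) and *Fos* (573). Of neighbours in this order, the step from *Fosl2* to *Junb* (0.96 on the log2 scale) was larger than the spread of either gene's main transcript over the libraries (at most 0.43). Each of the other steps was smaller than the larger spread of its pair. By this yardstick the order of *Jun*, *Fosl1* and *Fosl2*, and that of *Junb*, *Maff*, *Jund*, *Fos* and *Fosb*, was not resolved from 1 place to the next. The yardstick is the spread of single libraries for the main transcript, not the error of a mean. Both genes of a pair come from the same libraries, so whether a step holds in each library is unknown.

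**Figure D1:**
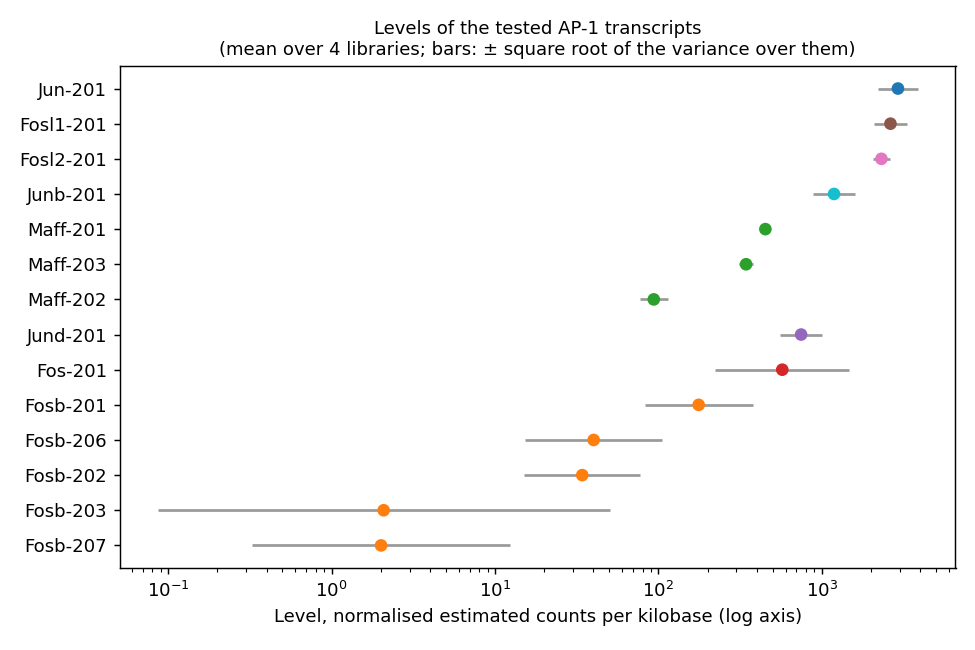
Mean level of each tested AP-1 transcript in normalised estimated counts per kilobase (log axis), ordered by the summed level of the gene. Points are means over the 4 libraries of both groups and bars show the square root of the deposited variance over them in each direction. *Jun*, *Fosl1* and *Fosl2* lie between 2318 and 2925 with short bars, while the *Fos* and *Fosb* transcripts lie lower with long bars.

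The 4 FOS genes made up 50.1% of the summed level per kilobase of the 8 genes, the 3 JUN genes 42.2% and *Maff* 7.71%. Within the FOS genes, *Fosl1* held 45.6% and *Fosl2* 40.1%, while *Fos* held 9.92% and *Fosb* 4.41%. The late FOS genes therefore stood above the immediate-early ones in the mean over these libraries. Within the JUN genes, *Jun* held 60.2%, *Junb* 24.4% and *Jund* 15.4%. In counts that were not divided by length, the long *Fosl2* transcript (6537 bases) had the most, with 15150, against 9328 for *Jun* (3189 bases) and 4908 for *Fosl1* (1864 bases). In bulk RNA, fewer cells that express a gene and less RNA of it per cell cannot be told apart.

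The deposited variance of each transcript over the 4 libraries limits how far apart they can lie. From it follow the least and the largest gap between the lowest and the highest library. The least gap is also the most by which the means of 2 libraries and the other 2, such as Knockdown and Wild type, can differ, while the direction and the libraries concerned stay unknown. For *Fos* and *Fosb* this variance is not independent of the values that chose the family, and it is given as a description. The gaps are differences of log2(count + 0.5).

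*Fos* and *Fosb*, partners of JUN in the immediate-early response, had the largest gaps of the family. Fos-201 (ENSMUST00000021674.6, chromosome 12 from 85473890 to 85477273, plus strand, 4 exons) had a mean of 1208 normalised estimated counts, and its lowest and highest library lay at least 2.36 and at most 3.34 log2 units apart, which is 5.15-fold to 10.1-fold. Its variance was larger than that of 99.5% of the 1000 transcripts nearest to it in level. Fosb-201 had a mean of 667 normalised estimated counts and a gap of 1.91 to 2.70 log2 units (3.75-fold to 6.48-fold), larger in variance than 99.2% of the 1000 transcripts nearest in level. The deposited score for read assignment is the variance over repeated rounds of redrawing and assigning reads, so it can hold counting error too. It equalled 0.109% of the variance over the libraries for Fos-201 and 1.41% for Fosb-201. For comparison, the *Setd2* transcript (ENSMUST00000153838.7), the target of the siRNAs, had a gap of 2.00 to 2.82 log2 units.

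The 3 JUN genes have 1 exon each, and their transcripts varied less. Jun-201 (ENSMUST00000107094.1, chromosome 4 from 95049034 to 95052222, minus strand) had a mean of 9328 normalised estimated counts and a gap of 0.69 to 0.97 log2 units between the lowest and the highest library. Junb-201 (ENSMUST00000064922.6, chromosome 8 from 84976910 to 84978718, minus strand), whose product activates less strongly than JUN, had 2149 counts and a gap of 0.75 to 1.06. Jund-201 (ENSMUST00000095267.5, chromosome 8 from 70698949 to 70700616, plus strand), the JUN protein made most steadily in resting cells, had 1246 counts and a gap of 0.73 to 1.03. These gaps overlapped, and the means of Knockdown and Wild type can differ by at most 0.69 log2 units for *Jun*, 0.75 for *Junb* and 0.73 for *Jund*. Compared with the 1000 transcripts nearest in level, their variances were larger than those of 91.8%, 92.6% and 89.4%.

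The late FOS genes and *Maff* had smaller least gaps than the other members. Fosl1-201 (chromosome 19 from 5447547 to 5455946, plus strand), which encodes FRA-1, had a mean of 4908 normalised estimated counts and a gap of 0.58 to 0.81 log2 units. Its deposited identifier, ENSMUST00000025850.5, is 1 version older than that of the annotation, from which its length was taken. Fosl2-201 (ENSMUST00000031017.10, chromosome 5 from 32135801 to 32157842, plus strand), which encodes FRA-2, had 15150 counts and a gap of 0.31 to 0.44. The *Maff* transcripts Maff-201, Maff-203 and Maff-202 had 884, 644 and 178 counts. The gap of Maff-201 (ENSMUST00000096350.10, chromosome 15 from 79347520 to 79359076, plus strand) was 0.15 to 0.22 log2 units, so that its lowest and highest library differed by at most 1.16-fold. The means of the groups can differ by at most 1.11-fold for Maff-201 and 1.24-fold for Fosl2-201. The variance of Maff-201 was larger than that of 11.3% of the 1000 transcripts nearest in level. Its score for read assignment equalled 101% of that variance.

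**Figure D2:**
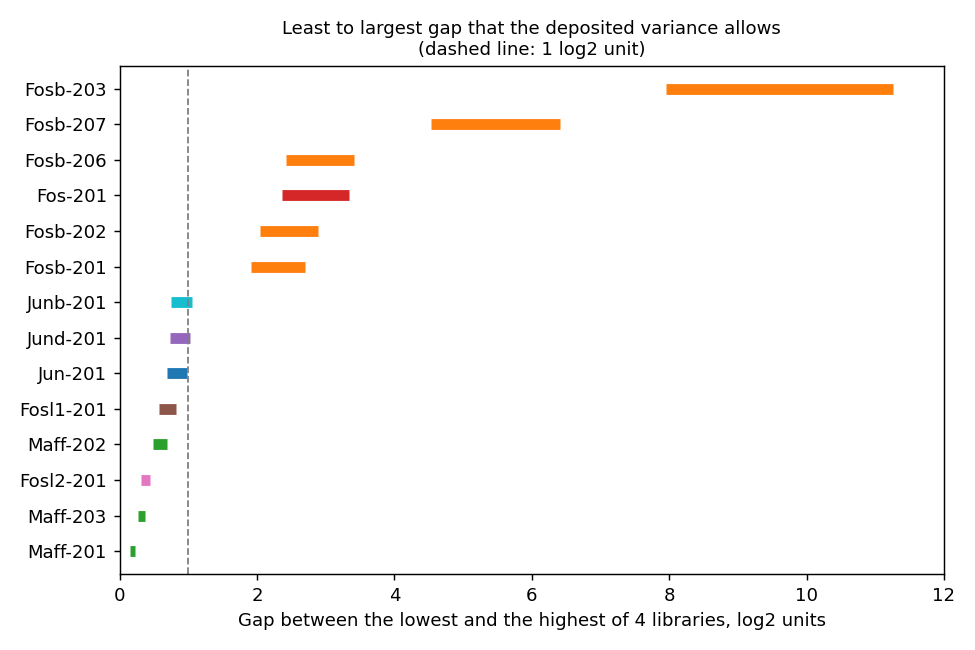
Gap between the lowest and the highest of the 4 libraries for each tested AP-1 transcript, in log2 units. Each bar runs from the least to the largest gap that the deposited variance allows. The *Fos* transcript and the 5 *Fosb* transcripts lie wholly above the dashed line at 1 log2 unit, the bars of Junb-201 and Jund-201 cross it, and the other 6 lie below it.

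In 6 of the 14 AP-1 transcripts the lowest and the highest library lay at least 1 log2 unit apart, against 22.8% of all tested transcripts. All 6 belong to *Fos* and *Fosb*, the genes for which the family was chosen, and the 5 *Fosb* transcripts share most of their sequence, so nothing is read from this count. In 4 of the 14, Fosl2-201 and the 3 *Maff* transcripts, the means of the groups can differ by at most 0.5 log2 units, against 46.4% of all tested transcripts. Taking 1 transcript for each gene, the most abundant, 2 of 8 genes were at least 1 log2 unit apart (17.3% of all genes) and 2 of 8 can differ by at most 0.5 (52.6% of all genes).

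**Figure D3:**
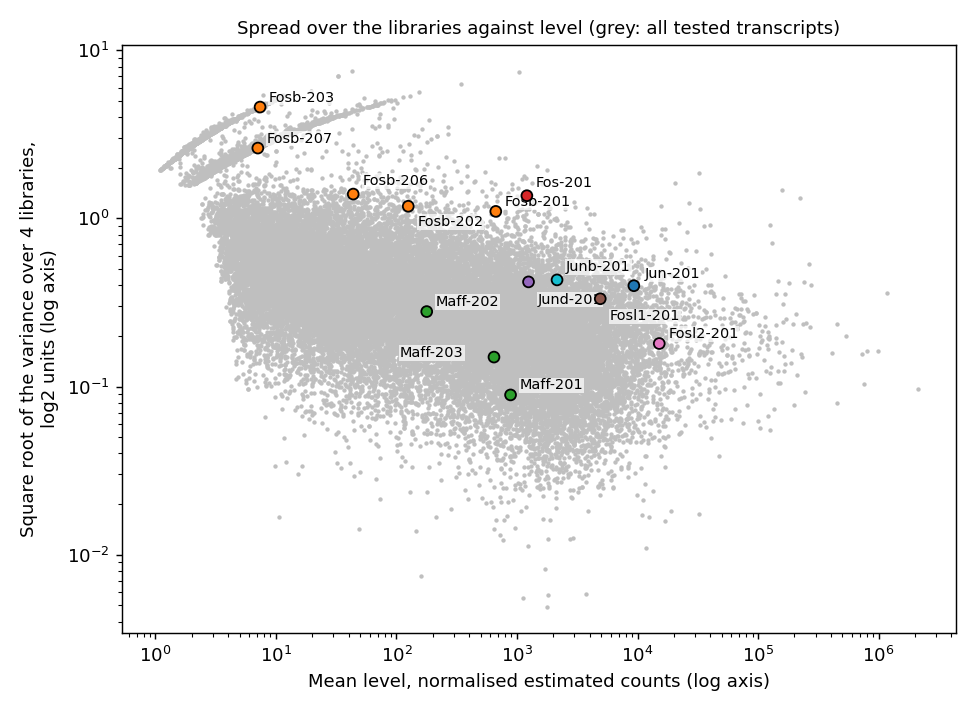
Square root of the deposited variance over the 4 libraries, in log2 units, against the mean level in normalised estimated counts, both on log axes. Grey points are all 34200 tested transcripts and coloured points are the AP-1 transcripts. Fos-201 and Fosb-201 lie at the upper edge of transcripts of their level, and Maff-201 and Maff-203 lie in the lower part.

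Among the *Fosb* isoforms, the full-length transcript held most of the gene's counts. Fosb-201 had 78.4% of them, Fosb-202 14.7%, Fosb-206 5.15%, Fosb-203 0.868% and Fosb-207 0.832%. Per kilobase the short Fosb-206 (1090 bases), which encodes ΔFosB, reached 40.1, close to the 34.2 of Fosb-202 and below the 176 of Fosb-201. Isoforms without exon 3, and so without the basic region, made up 16.4% of the gene's counts, and isoforms with the 140-base splice in exon 4 made up 5.98% of the counts and 16.5% of the level per kilobase. These shares are uncertain, because none of the words of 31 bases in Fosb-202, Fosb-206 or Fosb-207 is particular to it among the 5 transcripts. The shares also rest on geometric means, which are lowered most for Fosb-203 and Fosb-207 with their wide spread, so they can understate these isoforms. The score for read assignment equalled 73.9% of the variance of Fosb-202, 96.4% for Fosb-206 and 95.7% for Fosb-207. In Fosb-201, 10 of 3752 such words were particular to it, and they lie at its ends, where it is a few bases longer than the others.

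The pair of isoforms with the lowest geometric means reached the lower end of the scale. Fosb-203 (ENSMUST00000207716.1) had a geometric mean of 7.38 counts and a square root of the variance of 4.59 log2 units. A pattern of 2 libraries at a count of 0 with the other 2 at equal counts would give 4.59. In that pattern the other 2 would hold far more than 7.38 counts, so the geometric mean alone does not show that Fosb-203 is rare in each library. However, the score for read assignment of Fosb-203 was 2.56e-17, far below those of the other *Fosb* isoforms, so its estimates hardly varied between the repeated rounds. What this means for its counts was not tested. For Fosb-207 (ENSMUST00000208505.1), with a geometric mean of 7.07 counts, the square root of the variance was 2.62. A pattern of 1 library at 0 with equal counts in the other 3 would give 2.61. Other sets of counts can give nearly the same values, so which libraries were low is unknown. In all, 507 transcripts (1.48%) lay within 2% of the first pattern and 562 (1.64%) within 2% of the second. The 25 words of 31 bases particular to Fosb-203 span the junction to the shortened exon 2 shown above.

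**Figure D4:**
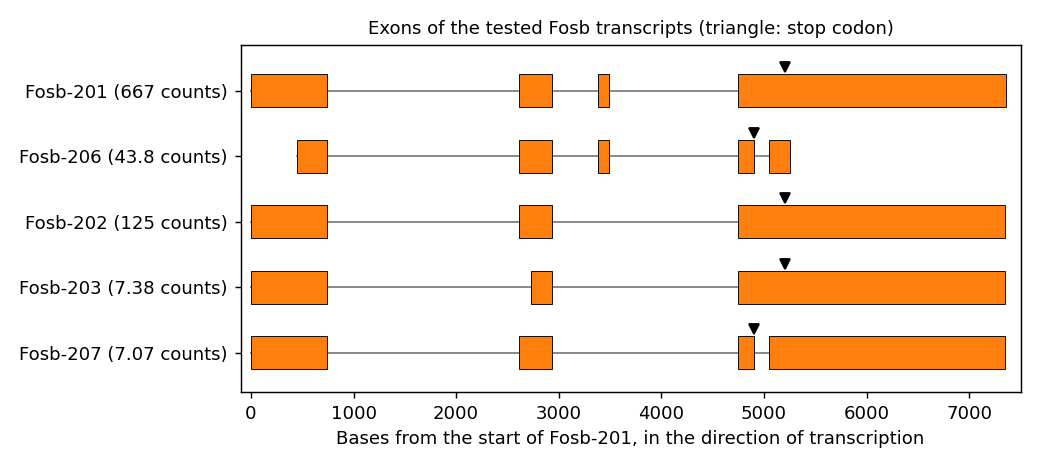
Exons (boxes, to scale) of the 5 tested *Fosb* transcripts, in bases from the start of Fosb-201 in the direction of transcription, with introns as lines, the stop codon as a triangle and the mean normalised estimated counts beside each name. Exon 3, the narrow box of 108 bases, is present in Fosb-201 and Fosb-206 and missing from the other 3, and the stop codon of Fosb-206 and Fosb-207 comes earlier.

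The 3′UTRs of immediate-early mRNAs are known for AU-rich elements, in which the pentamer ATTTA recurs and which proteins such as ZFP36 bind to hasten decay. Of the 14 AP-1 transcripts, 13 held ATTTA in the 3′UTR, against 61.4% of 25837 tested coding transcripts. The exception was Fosb-206, whose annotated 3′UTR has 207 bases. The *Fosb* transcripts among the 13 share 1 site and the 3 *Maff* transcripts share 4, so the 13 are not separate cases. These shares take no account of the length of the 3′UTR. Fos-201 held 4 in a 3′UTR of 815 bases, or 4.91 per kilobase, more than 92.7% of the tested coding transcripts. Junb-201 held 4.12 per kilobase, Maff-201 3.28 and Jun-201 3.24, against a median of 1.09 over all. Fosb-201 held 1 in 2145 bases, or 0.466 per kilobase, and Fosl2-201 held 8 in 4653 bases, or 1.72 per kilobase. The part of these words in the spread over the libraries was not tested. The longer word TTATTTATT was found in Fos-201, Fosl2-201 and the 3 *Maff* transcripts, which share 1 end, against 6.93% of all. The stretch of 30 bases with the most matches is given for Fos-201, Fosl2-201, Jun-201 and Maff-201, which held 2 each, and for Fosb-201, which held 1, with ATTTA in capitals.
Fos-201, bases 642 to 671 after the stop codon: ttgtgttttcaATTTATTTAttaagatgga
Fosl2-201, bases 3675 to 3704: aattgacATTTAttttattATTTAttttaa
Jun-201, bases 1031 to 1060: atcATTTAtaatcataggaaagATTTAgta
Maff-201, bases 1039 to 1068: aaatcacATTTAatcttatATTTAgggaga
Fosb-201, bases 1486 to 1515: cccacccccagctATTTAtccctttcctgg

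**Figure D5:**
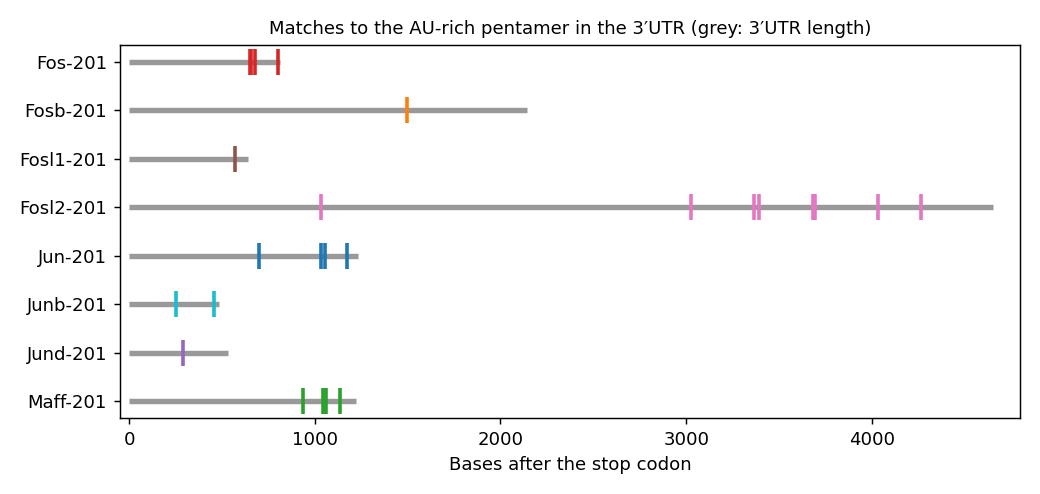
Positions of the pentamer ATTTA (coloured ticks) in the 3′UTR (grey line, to scale) of 1 transcript for each gene, in bases after the stop codon. The 4 ticks of Fos-201 lie in the last part of its 815 bases, whereas Fosb-201 has 1 in 2145 bases.

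Promoter windows from RefSeq (GRCm38.p6), 250 bases before to 50 after a gene's start, were found for 9 of the 10 genes, with 3 windows for *Maff*, but not for *Fosl1*. The RefSeq start lay within 30 bases of a tested start for *Fos*, *Fosb*, *Jun*, *Junb*, Maff-201 and Maff-203, but 338 bases away for Maff-202, 671 bases away for *Fosl2* and 1210 bases away for *Jund*. Words were searched on both strands, apart from TATAAA, which was searched on the coding strand. The cyclic AMP response element TGACGTCA, which CREB and ATF proteins bind, was found in 1 gene, *Maff*, at position -29 from the start of Maff-201, against 1.79% of all 32851 promoters. Its core TGACG, which overlaps it, was found in *Fos*, *Fosb*, *Junb*, *Maff* and *Atf3*, against 20.8% of all promoters. In *Fos* it began at positions -129 and -66 from the RefSeq start and in *Fosb* at -60. The AP-1 site TGANTCA was found in 0 of the 9 genes (7.81% of all promoters), and the CArG box that serum response factor binds was also found in 0 of these windows (1.63%). Sites more than 250 bases before the start lie outside the windows. A serum response element of *Fos* there could not have been found, so its absence is not shown. TATAAA was found in *Fos*, at position -33, and in *Junb*, at position 1 (8.32% of all). For *Junb* the position is from the RefSeq start, and the tested Junb-201 starts 30 bases downstream of that start. The SP1 word GGGCGG was found in 7 genes (35.7% of all). Over promoters of genes with a tested transcript the shares were 2.68% for TGACGTCA, 27.5% for TGACG, 6.18% for TGANTCA and 1.37% for the CArG box. For TATAAA the share was 5.49% and for GGGCGG 54.2%. The shares are of single promoters, whereas the matches are counted by gene, and *Maff* has 3 windows. Counted by window, TGACG was found in 6 of 11. The 250 bases before the start are printed for *Fos* and *Fosb*, the genes with the largest gaps over the libraries, and for Maff-201, the transcript with the smallest, with TGACG, TGACGTCA and TATAAA in capitals.
*Fos*, chr12:85473640-85473889, plus strand: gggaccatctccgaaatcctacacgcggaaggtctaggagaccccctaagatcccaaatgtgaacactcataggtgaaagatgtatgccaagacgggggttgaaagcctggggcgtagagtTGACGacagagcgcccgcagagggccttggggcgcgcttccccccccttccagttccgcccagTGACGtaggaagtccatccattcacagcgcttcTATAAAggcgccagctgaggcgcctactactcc
*Fosb*, chr7:19310046-19310295, minus strand: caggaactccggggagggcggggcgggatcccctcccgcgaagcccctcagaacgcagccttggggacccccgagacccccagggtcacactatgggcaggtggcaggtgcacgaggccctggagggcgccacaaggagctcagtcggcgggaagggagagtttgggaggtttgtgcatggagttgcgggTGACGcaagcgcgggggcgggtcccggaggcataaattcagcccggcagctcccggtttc
*Maff*, chr15:79347270-79347519, plus strand: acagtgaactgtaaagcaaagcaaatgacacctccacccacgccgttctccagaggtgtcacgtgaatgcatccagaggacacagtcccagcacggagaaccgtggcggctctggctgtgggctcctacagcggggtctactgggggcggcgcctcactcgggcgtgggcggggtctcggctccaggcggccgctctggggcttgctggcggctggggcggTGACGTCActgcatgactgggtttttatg

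Other genes of the pathway were described as lists, by levels per kilobase summed over tested transcripts and by the gap of the most abundant transcript. Of all genes, 17.3% had a gap of at least 1 log2 unit and in 52.6% the means of the groups can differ by at most 0.5, and the counts of each list are to be read against these shares. The genes with a large gap were named after their values were seen. Of 33 other bZIP genes, which include the further partners of AP-1, 28 were tested, from *Creb5* at 0.722 to *Atf4* at 17570 counts per kilobase, with a median of 880. In 2 of them, *Bach2* and *Batf2*, the lowest and highest library lay at least 1 log2 unit apart, and both were low, at 11.5 and 2.41 per kilobase, while in 17 of the 28 the means of the groups can differ by at most 0.5. All 23 listed kinases of the MAPK pathways, which act on FOS and JUN proteins directly or through other kinases, were tested. Their median was 633 counts per kilobase, and *Mapk10*, a neuronal JNK gene, was the lowest at 0.931. *Mapk13* and *Rps6ka1*, at 1.32 and 3.68 per kilobase, had a gap of at least 1, and in 17 of the 23 the means of the groups can differ by at most 0.5 log2 units. Of 8 symbols for serum response factor and its partners, 6 were tested, the other 2 being newer names of genes already counted. They lay between *Mkl2* at 241 and *Elk3* at 2065 counts per kilobase. Of these 6, 0 had a gap of at least 1, and in 5 the means of the groups can differ by at most 0.5. Of 9 factors that bind AU-rich mRNA, all were tested, with a median of 2170 counts per kilobase, and *Hnrnpd* was the highest at 6424. *Zfp36*, itself an immediate-early gene, was the 1 with a gap of at least 1, from 1.14 to 1.61 log2 units at 1244 counts per kilobase. That gap is of its most abundant transcript, whose square root of the variance was 0.659 log2 units, while a further tested *Zfp36* transcript had 0.436. In the other 8 of the 9 genes the means of the groups can differ by at most 0.5. Of 20 genes with known AP-1 sites, 17 were tested, from the collagenase gene *Mmp13* at 3.74 to *Spp1*, which encodes osteopontin, at 194353. In *Ccnd1* (cyclin D1), *Il6* and *Mmp13* the gap was at least 1.10, 1.53 and 1.80 log2 units, and in 8 of the 17 the means of the groups can differ by at most 0.5, counts near those shares of all genes.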

How the data were processed

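RNA of 2 Knockdown and 2 Wild type libraries of NIH/3T3 cells was analysed, grouped by the labels. Per the methods of the study, adapters were removed with BBDuk, reads were quantified with Kallisto and the groups were compared in Sleuth. The index and the filter on low counts are not given in the sources used here, and the labels name GRCm38. The authors deposited for each transcript the mean over the 4 libraries of the natural log of size-factor normalised estimated counts plus 0.5 (the defaults of Sleuth, to which the values were taken to belong), the variance of these values, and a score for read assignment, which is the part of the variance that comes from assigning reads to transcripts. The deposited tables also hold the effects, test statistics, p-values and q-values of the authors' own comparison for transcripts and genes, which were not used, and 0 columns of single libraries. The test between the groups that had been planned on estimated counts was therefore not made.

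The level was computed as the exponential of the mean minus 0.5, and divided by the transcript length in GENCODE M21 (98.6% of all transcripts matched with the same version). With the variance v (denominator 3, as Sleuth computes it) in squared log2 units, the gap between the lowest and the highest of 4 values lies between the square roots of 3v and 6v, and the means of 2 and the other 2 differ by at most the square root of 3v. These limits were tested on simulated data. They cover the spread between these 4 samples, which may be technical. Counting error was not separated from it, and depth is unknown. Transcript and promoter sequences came from GENCODE M21 and RefSeq. Python 3.11.15, numpy 2.4.6 and pandas 2.3.3 were used. The members and the lists were chosen with earlier results of these data known. The text names every member, the extremes of each list apart from some that are not reported here, and genes chosen after their values were seen where it says so. The fibroblast and other cell type genes, the words of 31 bases the limits of 1 and 0.5 log2 units and the AU-rich words were likewise picked with values already in view.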

Additional observations from a re-analysis of the deposited data

How the results depend on the processing

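Median levels per kilobase of the 14 AP-1 transcripts moved from 398 to 444 when 200 bases were taken off each length and stayed at 398 when the added 0.5 was not taken away, less than the spread over the libraries. Of 28 such values for single transcripts, 26 moved by less than the spread of the transcript, the exceptions being Maff-201 (503 per kilobase with the shorter length) and Maff-203 (385). Of the 8 genes, 5 kept their place in the order with the most abundant transcript of each gene and 5 with no division by length. Transcripts with a variance past the 90th percentile numbered 6 of 14. These 6 were Fos-201 and the 5 overlapping *Fosb* transcripts, of the genes for which the family was chosen, so nothing is read from this count or from those that follow. The number was 3 after the score for read assignment was taken away from the variance. It was also 3 among transcripts with at least 100 counts, which leaves out the rare *Fosb* isoforms by construction. Against the 1000 transcripts nearest in level the number was 7, with Jun-201 and Junb-201 added and Fosb-207 left out. With 1 mismatch allowed, the number of genes with a match rose to 5 for TGANTCA, 4 for TGACGTCA, 9 for TGACG and 5 for TATAAA, at shares of all promoters of 69.4%, 12.5%, 99.7% and 57.3%. No paired analysis was possible because values of single libraries were not used, and for the same reason no library was left out in turn and the fits across all transcripts, with edgeR or DESeq2, were not run. Identity between the proteins was not computed here. Depth is unknown, and levels near 0 are given without a counting error.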

Other observations

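In the order of all genes by level per kilobase, *Jun* lay between *Arf6* and *Atp6v1c1*, *Fosl1* between *Apoo* and *Dpm2*, *Fosl2* between *Gm7879* and *Gtf3c6*, *Junb* between *Taok2* and *Med24*, and *Maff* between *Rtel1* and *Pgap2*. *Fos* lay between *Inafm2* and *Alas1*, and *Fosb* between *Jak2* and *Cdk6*. These neighbours share a mean level over the 4 libraries and nothing further was compared.

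Of the annotated transcripts, 7 are listed for *Fosb*, of which 5 were tested, and 4 for *Maff*, of which 3 were tested. The other 6 tested genes had 1 tested transcript each.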
